A study of Mus musculus with 6 samples.

Results

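Glutathione transferases, aldehyde dehydrogenases, aldo-keto reductases and sulfotransferases were examined in mouse myocardium after injection of streptozotocin (STZ) or of PBS. The members are the protein-coding genes whose symbol starts with Gsta, Gstm, Gstp, Gstt, Gstk, Gsto, Gstz, Mgst, Aldh, Akr or Sult. This rule goes by name alone, but it was chosen with earlier results of these data known. The members numbered 84 of the 55401 genes listed, namely 25 glutathione transferases (microsomal ones included), 21 aldehyde dehydrogenases, 17 aldo-keto reductases and 21 sulfotransferases. STZ destroys pancreatic beta cells, which make insulin, and the title of the series places the samples in a study of the diabetic heart. All libraries came from male wild-type (WT) mice with a time label of 8 weeks, 3 after STZ and 3 after PBS. The sources used here do not give the event from which that time runs, the mouse strain or the STZ dose. Whether each library is from its own animal is not stated in the labels, so the p-values reflect only how these libraries spread, and that spread may be technical.

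Expression was given as FPKM (fragments counted per kilobase of a transcript and relative to all mapped fragments of its library), a level per length that can be compared between genes. Of the 5 complete libraries, those of STZ summed to 531384 to 581718 FPKM and those of PBS to 586336 and 589719 FPKM. Mitochondrially encoded genes took 42% to 45.5% of this in STZ and 47.3% and 47.1% in PBS, so the groups did not overlap in either measure. The number of fragments behind a value is unknown. The file of PBS replicate 3 listed 7711 genes (13.9%), so the test used 3 STZ libraries and PBS replicates 1 and 2, and PBS replicate 3 stands beside them where it lists a gene. The 5 cardiomyocyte markers Myh6, Tnnt2, Actc1, Ryr2 and Tnni3 summed to 6714 to 7739 FPKM in STZ and 9539 to 9824 FPKM in PBS. Actc1 fell (3004 FPKM in STZ, 4861 FPKM in PBS, limma adjusted p = 0.028), and of the other 4, none past the threshold in limma, Tnnt2 had a higher mean in STZ and Myh6, Ryr2 and Tnni3 a lower one. In these bulk samples fewer cells of a type and less RNA per cell cannot be told apart.

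These enzymes handle reactive small molecules. Glutathione transferases couple the tripeptide glutathione to electrophiles or use it to reduce peroxides, aldehyde dehydrogenases oxidise aldehydes to carboxylic acids, aldo-keto reductases reduce carbonyls with NADPH, and sulfotransferases pass a sulfo group from the donor PAPS to phenols, steroids and other acceptors. In heart muscle the mitochondrial Aldh2 and the transferase Gsta4 are known for removing hydroxynonenal, an aldehyde formed when membrane lipids oxidise. Aldose reductase, Akr1b3 in mice, starts the polyol pathway that turns glucose into sorbitol.

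Of the 84 members 42 reached 1 FPKM in at least 2 of the 5 complete libraries and were tested, namely 19 of 25 glutathione transferases, 15 of 21 aldehyde dehydrogenases, 7 of 17 aldo-keto reductases and 1 of 21 sulfotransferases. The other 42 stayed at or below 0.7 FPKM in these libraries, and 15 of them were listed at 0 in all 5. In a limma test over all 11556 genes that met the same filter, 4 members rose in STZ hearts (Sult1a1, Gstm1, Aldh9a1 and Aldh1a1), 2 fell (Aldh4a1 and Aldh1a2) and 36 did not pass an adjusted p of 0.05. Over all genes tested 5.82% passed, 3.64% higher and 2.17% lower in STZ hearts, against 14.3% of the tested members. Of all calls 62.6% were higher in STZ, a share that was 48.5% after median centring, 50.2% after quantile normalization and 73.8% on the TPM scale. The members' median log2 fold change was 0.02, beside 0.06 over all genes tested, with 21 members of either sign. The STZ libraries and PBS replicates 1 and 2 did not overlap for 27 members, 14 higher and 13 lower in STZ, and over all genes tested the share was 47.4%, with 28.7% higher and 18.8% lower.

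The 250 bases before the annotated start of the 6 genes that passed are shown because they are the members whose levels moved. They come from the RefSeq table of GRCm38.p6 and run 5′ to 3′ on the strand of the gene. Capitals mark letters of 3 motifs searched on both strands, the core of the antioxidant response element (TGANNNNGC), the core of the xenobiotic response element (GCGTG) and the hexamer of the glucocorticoid receptor (TGTTCT). The windows are chr7:126676419-126676668 on the minus strand for Sult1a1, chr3:108017974-108018223 on the minus strand for Gstm1, chr1:167349741-167349990 on the plus strand for Aldh9a1, chr19:20492333-20492582 on the plus strand for Aldh1a1 (for Gstm1 and Aldh1a1 the 1 of 2 windows nearest to the GENCODE start), chr4:139622644-139622893 on the plus strand for Aldh4a1 and chr9:71215539-71215788 on the plus strand for Aldh1a2.
Sult1a1: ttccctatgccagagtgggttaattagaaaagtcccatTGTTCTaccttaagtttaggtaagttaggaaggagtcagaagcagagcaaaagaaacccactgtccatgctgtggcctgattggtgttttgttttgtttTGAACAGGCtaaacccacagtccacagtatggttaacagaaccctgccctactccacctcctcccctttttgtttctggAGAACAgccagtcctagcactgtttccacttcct
Gstm1: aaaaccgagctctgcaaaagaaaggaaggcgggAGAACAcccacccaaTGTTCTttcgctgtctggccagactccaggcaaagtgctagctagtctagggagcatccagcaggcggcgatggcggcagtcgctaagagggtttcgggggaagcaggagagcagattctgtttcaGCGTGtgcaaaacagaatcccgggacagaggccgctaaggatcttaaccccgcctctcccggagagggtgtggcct
Aldh9a1: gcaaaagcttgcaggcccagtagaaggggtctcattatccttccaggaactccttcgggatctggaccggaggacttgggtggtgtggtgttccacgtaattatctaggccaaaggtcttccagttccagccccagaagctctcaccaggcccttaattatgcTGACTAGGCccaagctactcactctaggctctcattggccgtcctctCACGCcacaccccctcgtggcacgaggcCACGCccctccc
Aldh1a1: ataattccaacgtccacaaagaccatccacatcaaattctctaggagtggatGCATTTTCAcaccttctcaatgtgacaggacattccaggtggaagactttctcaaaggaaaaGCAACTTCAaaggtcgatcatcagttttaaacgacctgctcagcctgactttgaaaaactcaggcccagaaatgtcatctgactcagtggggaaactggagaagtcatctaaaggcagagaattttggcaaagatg
Aldh4a1: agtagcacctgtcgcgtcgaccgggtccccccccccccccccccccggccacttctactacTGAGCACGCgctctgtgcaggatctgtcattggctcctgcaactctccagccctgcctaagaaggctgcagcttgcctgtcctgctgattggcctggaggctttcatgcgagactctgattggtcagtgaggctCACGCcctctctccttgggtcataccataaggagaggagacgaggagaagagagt
Aldh1a2: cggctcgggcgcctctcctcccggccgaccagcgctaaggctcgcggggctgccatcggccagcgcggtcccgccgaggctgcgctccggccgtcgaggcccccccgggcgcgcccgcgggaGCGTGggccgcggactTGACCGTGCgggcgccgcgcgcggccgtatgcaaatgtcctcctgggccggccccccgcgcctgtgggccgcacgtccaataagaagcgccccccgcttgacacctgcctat

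The antioxidant core stood in the windows of all of these genes but Gstm1, with its leftmost letter at -113 from the start of Sult1a1, -87 from that of Aldh9a1, -189 from that of Aldh4a1 and -112 from that of Aldh1a2. Aldh1a1 held it at -198 and -136. The second window of Gstm1, which is not shown, held 0 matches of it as well. The xenobiotic core was found before Gstm1, Aldh9a1, Aldh4a1 and Aldh1a2, and in Aldh4a1 it overlapped the antioxidant core. The TGTTCT hexamer was found before Sult1a1 and Gstm1, 2 times in each. Of all 32851 windows of this length in that resource, the antioxidant core was in 35.2%, the xenobiotic core in 28.2% and the hexamer in 16.1%. Of the 46 windows of the 36 tested members with an entry, the shares were 50%, 23.9% and 15.2%. An exact PPAR-type direct repeat was in 0 of the 46 windows and in 0.0335% of all windows. The table had no entry for Akr1b3, Aldh1l2, Aldh2, Aldh7a1, Gsta4 and Gstt2. A match of these letters is a description and not a measured binding site. Positions count from the RefSeq start. It lies 14 bases from the GENCODE start for Sult1a1, 28 for Aldh4a1 and 132 for Aldh1a1. As GENCODE places the genes, the windows of Sult1a1 and Aldh4a1 run into the transcript. The windows of Aldh1a2 and Aldh1a1 differed in base composition, with 77.6% and 42.8% G or C.

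Sult1a1, which sulfates phenols, had the largest change of the 42 members. Its level was 46.1, 40.3 and 56.7 FPKM in STZ replicates 1, 2 and 3, against 9.69 and 11.5 FPKM in PBS replicates 1 and 2. Every STZ library lay well above both PBS libraries, and the means were 47.7 ± 8.30 FPKM in STZ (SD, n = 3) and 10.6 ± 1.26 FPKM in PBS (SD, n = 2). On the log2 scale the difference was 2.06 ± 0.18 (SE), with a limma adjusted p of 0.00707. Sult1a1 (ENSMUSG00000030711) lies on chromosome 7 from 126672865 to 126676432 (GRCm38), and 4.05% of its exon length overlaps Sgf29 on the other strand, which was at 3.56 to 4.92 FPKM. Without PBS replicate 1 the adjusted p was 0.0711, and it lay between 0.0184 and 0.048 without each of the others.

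Sult1a1 was nearly the whole of its group. It made up 98.8% ± 0.646 of the summed sulfotransferase FPKM in STZ libraries (SD, n = 3) and 94.9% ± 4.01 in PBS libraries (SD, n = 2). The other 20 sulfotransferases did not exceed 0.36 FPKM, a level that Sult4a1 had in PBS replicate 1. The oestrogen sulfotransferase Sult1e1 was at 0.14 FPKM in STZ replicate 2 and listed at 0 in the other 4 complete libraries, and 11 sulfotransferases were listed at 0 in all 5. The genes that make the sulfo donor had levels of 3.50 ± 0.648 FPKM in STZ and 3.41 ± 0.382 FPKM in PBS for Papss1 (limma adjusted p = 0.948) and 2.39 ± 0.0929 FPKM in STZ and 1.77 ± 0.453 FPKM in PBS for Papss2 (limma adjusted p = 0.238). In a list of sulfate donor and sulfate removal 10 genes were tested, 0 passed in limma (1 had an unadjusted p under 0.05), and the median was 0.01 on the log2 scale.

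**Figure D1:**
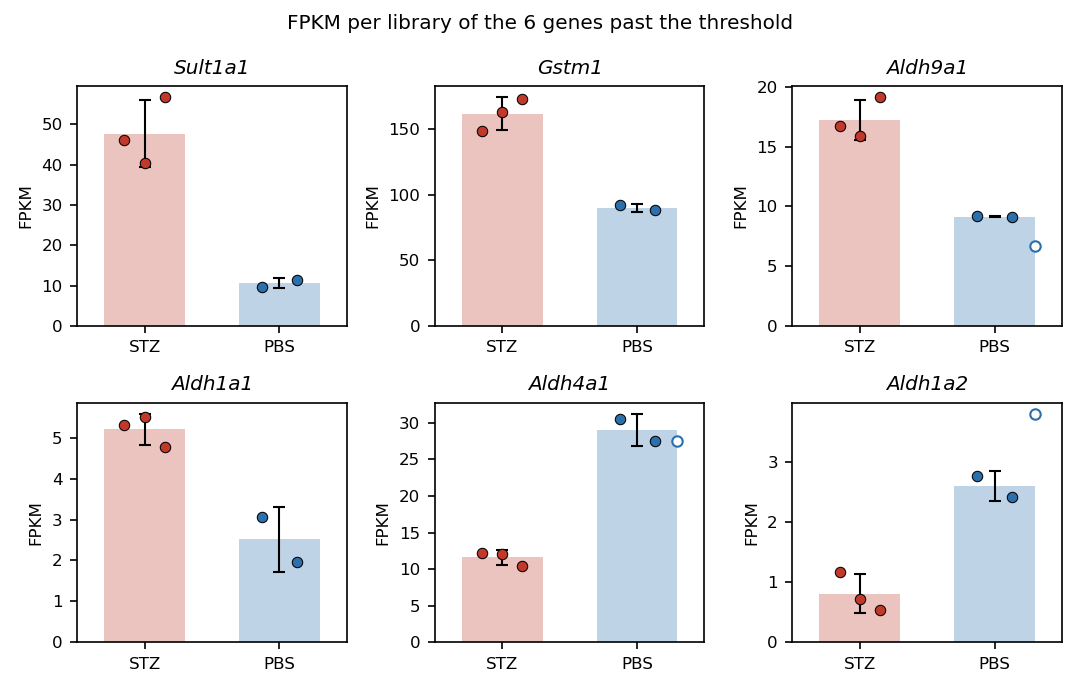
FPKM of the 6 genes past the threshold, with STZ libraries in red and PBS libraries in blue. Each filled point is a complete library, bars and whiskers are means ± SD of those (n = 3 STZ, n = 2 PBS), and open points are PBS replicate 3 where its file lists the gene. STZ and PBS points do not overlap in any panel, and Sult1a1 averages 47.7 FPKM in STZ against 10.6 FPKM in PBS.

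Among the 19 tested glutathione transferases only Gstm1 passed (5.26%, near the 5.82% of all genes tested), and it rose. It is a cytosolic enzyme of the mu class. Gstm1 (ENSMUSG00000058135, chromosome 3, 108012255 to 108017973) had 149, 163 and 173 FPKM in STZ replicates 1, 2 and 3, against 92.2 and 88.1 FPKM in PBS replicates 1 and 2. The lowest STZ library was above the highest PBS library, and the means were 162 ± 12.3 FPKM in STZ (SD, n = 3) and 90.2 ± 2.96 FPKM in PBS (SD, n = 2). The difference was 0.84 ± 0.12 (SE) on the log2 scale, with a limma adjusted p of 0.022. Without STZ replicate 2 the adjusted p was 0.051, and without PBS replicate 1 or PBS replicate 2 it was 0.176 or 0.183. The processed pseudogene Gstm2-ps1, which holds 20.4% of the stretches of 75 bases of the Gstm1 transcript, had 4.92 to 10.7 FPKM, and reads could have been shared between them.

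The neighbours of Gstm1 in the Gstm cluster of chromosome 3 had other values. Gstm2, whose coding sequence is 85.9% identical to that of Gstm1, had 29.8, 39.0 and 35.2 FPKM in STZ replicates 1, 2 and 3, against 46.6 and 43.0 FPKM in PBS replicates 1 and 2, with a log2 fold change of -0.37 (limma adjusted p = 0.182). Its groups did not overlap either, in the other direction. Gstm5 averaged 21.4 ± 2.67 FPKM in STZ and 22.9 ± 1.47 FPKM in PBS, Gstm7 14.5 ± 1.9 FPKM in STZ and 17.5 ± 0.721 FPKM in PBS, and Gstm4 6.22 ± 1.03 FPKM in STZ and 5.21 ± 0.0424 FPKM in PBS (SD, n = 3 and n = 2). Gstm6 met the filter only through its PBS level, 1.06 FPKM in both libraries, against 0.58, 0.14 and 0.36 FPKM in STZ. Gstm1 made up 67.6% ± 1.18 of the summed Gstm FPKM in STZ libraries (SD, n = 3) and 49.6% ± 0.677 in PBS libraries (SD, n = 2). The share of Gstm2 was 14.5% ± 1.48 in STZ and 24.6% ± 0.96 in PBS.

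**Figure D2:**
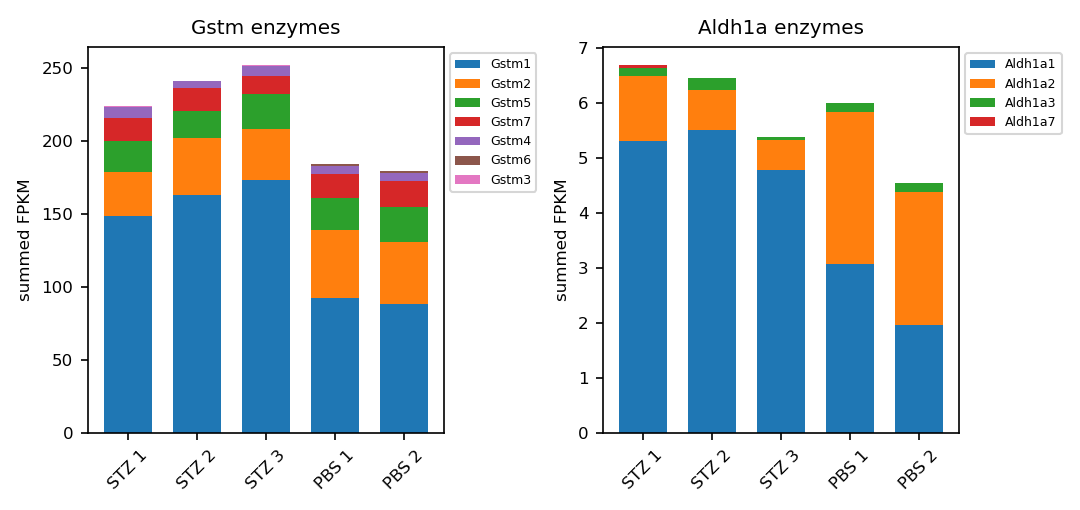
Summed FPKM of the 7 Gstm genes (left) and the 4 Aldh1a genes (right) in each complete library, with STZ libraries left of PBS libraries and 1 colour per gene. Gstm1 fills 66.4% to 68.8% of the Gstm bars in STZ and 49.1% to 50.1% in PBS, and Aldh1a1 fills 79.5% to 88.8% of the Aldh1a bars in STZ and 43.1% to 51.2% in PBS.

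Mgst3, a membrane-bound transferase that also reduces lipid peroxides, was the most abundant member. Its level was 215, 230 and 289 FPKM in STZ replicates 1, 2 and 3, against 155, 160 and 169 FPKM in PBS replicates 1, 2 and 3. All STZ libraries lay above all PBS libraries, and STZ replicate 3 stood apart upward. The log2 fold change on the 5 complete libraries was 0.62 ± 0.16 (SE) and did not pass (limma adjusted p = 0.0721). With PBS replicate 3 added it was 0.59 and passed (limma adjusted p = 0.0339). The related Mgst1 had 23.0, 24.3 and 22.3 FPKM in STZ, against 18.9, 14.4 and 15.3 FPKM in PBS replicates 1, 2 and 3. It likewise passed with PBS replicate 3 in the fit (limma adjusted p = 0.115 without it and 0.0469 with it). Mgst2 reached at most 0.31 FPKM. Together Mgst3 and Gstm1 made up 57.3% ± 2.25 of the glutathione transferase FPKM in STZ and 45.2% ± 0.175 in PBS (SD, n = 3 and n = 2).

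The alpha class was dominated by Gsta4, the hydroxynonenal enzyme, at 40.2 ± 4.46 FPKM in STZ (SD, n = 3) and 37.8 ± 0.70 FPKM in PBS (SD, n = 2). Its difference had a 95% interval of -0.25 to 0.41 on the log2 scale (limma adjusted p = 0.738). Gsta3, known in mice for conjugating aflatoxin epoxide, was low, with 2.10, 3.95 and 4.07 FPKM in STZ, against 1, 1.33 and 1.04 FPKM in PBS replicates 1, 2 and 3. The groups did not overlap, and its log2 fold change of 0.98 did not pass on 5 libraries (limma adjusted p = 0.07) and passed with PBS replicate 3 (limma adjusted p = 0.0265). Gsta1 spread widely in either group, at 0.19, 0.39 and 1.53 FPKM in STZ and 1.23 and 2.31 FPKM in PBS. It is uncertain, since 86.3% of its stretches of 75 bases also occur in the transcript of Gm3776.

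The pi class holds a pair of near-identical genes. The coding sequences of Gstp1 and Gstp2 were 98.1% identical, and 68.2% of the 75-base stretches of Gstp2 recur in Gstp1, so their separate values are uncertain. Gstp2 had 8.14, 7.69 and 9.76 FPKM in STZ, against 15.95 and 12.5 FPKM in PBS replicates 1 and 2, with a log2 fold change of -0.67 (limma adjusted p = 0.0668). Gstp1 averaged 46.9 ± 5.52 FPKM in STZ and 44.2 ± 5.77 FPKM in PBS. The summed Gstp level, which still depends in part on how reads were split because FPKM divides by length, was 60.7, 49.25 and 56.2 FPKM in STZ and 64.2 and 52.7 FPKM in PBS, and the groups overlapped. The processed pseudogene Gstp-ps had 6.81, 8.52 and 10.1 FPKM in STZ and 6.02 and 8.88 FPKM in PBS.

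In the theta class Gstt2 had 2.15, 2.44 and 3.91 FPKM in STZ, against 0.96 and 1.2 FPKM in PBS replicates 1 and 2, with no overlap and a log2 fold change of 0.86 (limma adjusted p = 0.0717). Gstt1 averaged 6.77 ± 1.48 FPKM in STZ and 5.11 ± 0.467 FPKM in PBS, and Gstt3 lay near the filter, at 0.57 to 1.24 FPKM in STZ and 0.41 to 1.01 FPKM over the 3 PBS libraries. Gsto1, which reduces dehydroascorbate, had 56.1, 50.85 and 56.0 FPKM in STZ, against 42.9, 47.2 and 48.7 FPKM in PBS replicates 1, 2 and 3. These groups did not overlap, by a narrow gap, and the test did not pass (limma adjusted p = 0.222). Gstk1, found in mitochondria and peroxisomes, averaged 31.4 ± 3.73 FPKM in STZ and 35.7 ± 2.62 FPKM in PBS. Gstz1, an isomerase of tyrosine breakdown, averaged 4.83 ± 0.543 FPKM in STZ and 4.27 ± 1.80 FPKM in PBS (SD, n = 3 and n = 2).

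The aldehyde dehydrogenases held 4 of the 6 calls, 2 in each direction. These were 26.7% of the 15 tested in this group, beside 5.82% of all genes tested. Aldh4a1 fell in STZ hearts. It is the mitochondrial enzyme that forms glutamate at the end of proline breakdown. Aldh4a1 (ENSMUSG00000028737, chromosome 4, 139622866 to 139649690) had 12.2, 12.1 and 10.5 FPKM in STZ replicates 1, 2 and 3, against 30.55, 27.5 and 27.5 FPKM in PBS replicates 1, 2 and 3. The groups lay far apart, and the log2 fold change on the 5 complete libraries was -1.25 ± 0.13 (SE, limma adjusted p = 0.00969). With PBS replicate 3 it was -1.23 (limma adjusted p = 0.00237). Without PBS replicate 1 or PBS replicate 2 the adjusted p was 0.108 or 0.0806. The annotated gene Gm21969 overlaps 32.5% of the exon length of Aldh4a1 on the same strand and was at 0.02 to 0.77 FPKM.

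The other enzymes of amino acid breakdown or synthesis in this group did not pass. Aldh7a1, of lysine breakdown, had 4.44, 5.16 and 5.24 FPKM in STZ, against 6.78 and 6.65 FPKM in PBS replicates 1 and 2 (log2 fold change -0.38, limma adjusted p = 0.118). Aldh5a1, which oxidises succinic semialdehyde from GABA, had 6.51, 7.68 and 5.44 FPKM in STZ, against 9.09 and 8.29 FPKM in PBS (log2 fold change -0.37, limma adjusted p = 0.199). Both had groups that did not overlap. Aldh6a1, of valine breakdown, averaged 31.0 ± 3.92 FPKM in STZ and 32.9 ± 0.248 FPKM in PBS, and Aldh18a1, which makes the precursor of proline, 1.70 ± 0.42 FPKM in STZ and 2.24 ± 0.0849 FPKM in PBS. Of these 5 genes, Aldh4a1 included, 1 fell, beside 2.17% of all genes tested. All 5 had a negative sign on the 5 complete libraries, as had 4971 of the 11556 genes tested. The median log2 fold change of the 5 was -0.37, beside 0.06 over all genes tested. The sign of Aldh6a1 turned without STZ replicate 3, where its log2 fold change was 0.02.

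Aldh9a1 rose. It oxidises aminoaldehydes and takes part in the synthesis of carnitine. Aldh9a1 (ENSMUSG00000026687, chromosome 1, 167349991 to 167368532) had 16.7, 15.9 and 19.1 FPKM in STZ, against 9.19, 9.13 and 6.71 FPKM in PBS replicates 1, 2 and 3. The PBS libraries lay below every STZ library, PBS replicate 3 lowest. The log2 fold change was 0.84 ± 0.13 (SE, limma adjusted p = 0.0251) on the 5 complete libraries and 0.97 (limma adjusted p = 0.0121) with PBS replicate 3. Without STZ replicate 1 the adjusted p was 0.0534, and without PBS replicate 1 or PBS replicate 2 it was 0.186 or 0.178. Its next tested protein-coding neighbour is Mgst3, 3433 bases away on the other strand, and the next on its other side, Tmco1, averaged 9.28 FPKM in STZ and 11.1 FPKM in PBS (limma adjusted p = 0.305).

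The enzymes that make retinoic acid from retinaldehyde changed in opposite directions. Aldh1a1 (ENSMUSG00000053279, chromosome 19, 20492715 to 20643465) had 5.31, 5.51 and 4.78 FPKM in STZ, against 3.07 and 1.96 FPKM in PBS replicates 1 and 2. It rose by 0.84 ± 0.17 on the log2 scale (SE), with a limma adjusted p of 0.044. This call was the closest to the threshold, and it was lost when any of the 5 libraries was left out (adjusted p from 0.0746 without STZ replicate 3 to 0.24 without PBS replicate 2). It was also lost after median centring (adjusted p = 0.0517), after quantile normalization (adjusted p = 0.0531) and after rescaling without mitochondrial and haemoglobin genes (adjusted p = 0.0563).

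Aldh1a2, the main retinaldehyde dehydrogenase of the embryo, fell. Aldh1a2 (ENSMUSG00000013584, chromosome 9, 71215789 to 71296243) had 1.17, 0.73 and 0.54 FPKM in STZ, against 2.77, 2.42 and 3.80 FPKM in PBS replicates 1, 2 and 3. The groups did not overlap, and the log2 fold change was -1 ± 0.18 (SE, limma adjusted p = 0.036) on the 5 complete libraries and -1.14 (limma adjusted p = 0.0147) with PBS replicate 3. The adjusted p was 0.0347 without STZ replicate 1, and 0.072, 0.0624, 0.234 and 0.177 without STZ replicate 2, STZ replicate 3, PBS replicate 1 and PBS replicate 2. It met the filter through both complete PBS libraries and STZ replicate 1. Aldh1a3 and Aldh1a7 did not exceed 0.21 FPKM. Aldh1a1 made up 84.6% ± 4.73 of the summed Aldh1a level in STZ (SD, n = 3) and 47.1% ± 5.72 in PBS (SD, n = 2), while the sum itself was 6.68, 6.45 and 5.38 FPKM in STZ and 6 and 4.55 FPKM in PBS, with overlap.

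Aldh1a2 is also known from mesothelial and epicardial cells. The 6 listed markers of those cells summed to 0.89 to 3.39 FPKM in STZ and 0.76 to 1.62 FPKM in PBS, 0 of 6 met the filter, and Upk3b reached 1.26 FPKM in STZ replicate 1. Their part in the Aldh1a2 values was not tested. Of 8 tested genes of retinoid handling 1 rose (12.5%, beside 3.64% of all genes tested), Cyp26b1, which breaks down retinoic acid (3, 1.89 and 2.12 FPKM in STZ, against 0.91 and 0.81 FPKM in PBS, limma adjusted p = 0.0489), and 0 fell. Cyp26b1 met the filter only through the STZ libraries, where it is high. Rarb, a receptor gene known to respond to retinoic acid, had 0.76, 1.38 and 0.93 FPKM in STZ, against 2.27, 1.66 and 2.51 FPKM in PBS replicates 1, 2 and 3, and did not pass (limma adjusted p = 0.123).

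The most abundant aldehyde dehydrogenase was Aldh2, at 48.2, 54.2 and 56.9 FPKM in STZ, against 49.4, 52.2 and 48.8 FPKM in PBS replicates 1, 2 and 3. The groups overlapped, and the difference had a 95% interval of -0.25 to 0.37 on the log2 scale (limma adjusted p = 0.797). Its mitochondrial relative Aldh1b1 averaged 5.63 ± 1.39 FPKM in STZ and 6.37 ± 0.728 FPKM in PBS. The fatty aldehyde dehydrogenase Aldh3a2 averaged 4.83 ± 0.623 FPKM in STZ and 4.07 ± 0.184 FPKM in PBS, and Aldh16a1 2.55 ± 0.225 FPKM in STZ and 2 ± 0.41 FPKM in PBS (SD, n = 3 and n = 2). Aldh3b1 met the filter only through STZ replicates 2 and 3 (0.98, 1.33 and 1.25 FPKM in STZ, against 0.75, 0.54 and 0.82 FPKM in PBS). The folate enzymes Aldh1l1 and Aldh1l2 lay near the filter, with 0.65 to 1.54 and 0.53 to 1.19 FPKM in STZ, against 0.33 to 1.10 and 0.64 to 0.98 FPKM over the 3 PBS libraries. Aldh3a1 had 0.70 FPKM in STZ replicate 1 and 0.08 to 0.25 FPKM in the other 5 libraries, and was not tested.

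**Figure D3:**
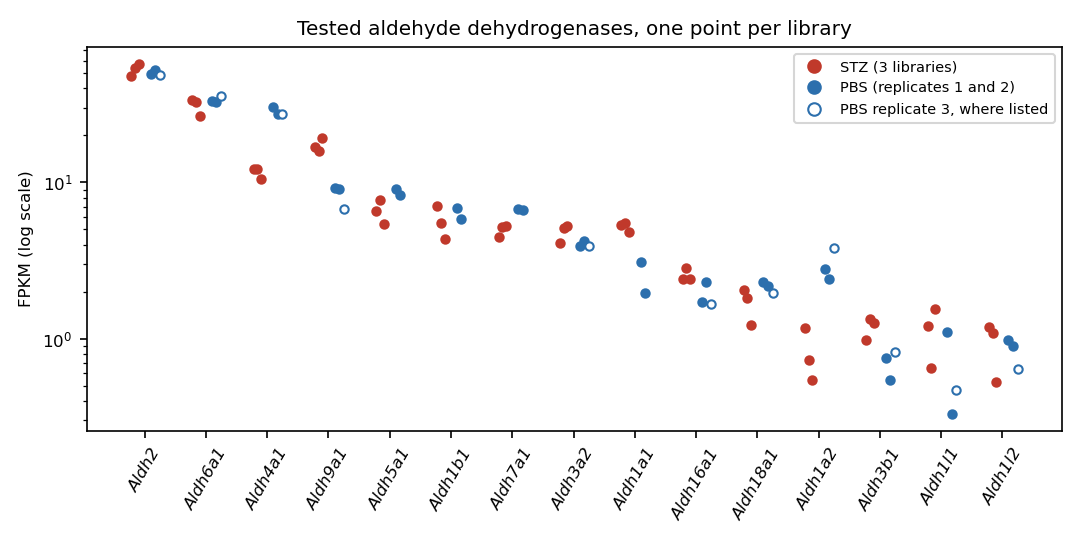
FPKM on a log scale of the 15 tested aldehyde dehydrogenases, ordered by mean level, with 1 point per library, STZ in red to the left and PBS in blue to the right of each gene, open for PBS replicate 3. Aldh2 and Aldh6a1 lead and overlap between the groups, while the STZ points of Aldh4a1 (10.5 to 12.2 FPKM) and Aldh1a2 (0.54 to 1.17 FPKM) lie below, and those of Aldh9a1 (15.9 to 19.1 FPKM) above, all PBS points.

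No tested aldo-keto reductase passed in limma on the 5 complete libraries, where 4 of the 7 had an unadjusted p under 0.05, beside 26.6% of all genes tested. Groups did not overlap for 6 of the 7, beside 47.4% of all genes tested. Akr1a1, the general aldehyde reductase that also serves ascorbate synthesis in mice, led with 53.7, 58.2 and 54.9 FPKM in STZ, against 47.1, 44.9 and 45.02 FPKM in PBS replicates 1, 2 and 3 (log2 fold change 0.27, limma adjusted p = 0.199). Aldose reductase, Akr1b3, had 14.4, 14.9 and 16.7 FPKM in STZ, against 19.2, 19.3 and 19.4 FPKM in PBS replicates 1, 2 and 3. Its PBS libraries were tightly grouped above the STZ libraries, with a log2 fold change of -0.31 and a 95% interval of -0.61 to -0.01 (limma adjusted p = 0.172, and 0.0821 with PBS replicate 3). In the Akr1b3 transcript 55.4% of the 75-base stretches also occur in the processed pseudogene Gm6644, which was listed at 0 in the 5 complete libraries.

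Akr7a5, known for reducing aflatoxin aldehyde, had 12.6, 13.05 and 13.8 FPKM in STZ, against 20.0, 17.3 and 18.3 FPKM in PBS replicates 1, 2 and 3. The groups did not overlap, and its log2 fold change of -0.47 did not pass on 5 libraries (limma adjusted p = 0.0805) and passed with PBS replicate 3 (limma adjusted p = 0.0333). Akr1b8, a relative of aldose reductase, had 2.46, 2.20 and 2.04 FPKM in STZ, against 1.52, 0.93 and 0.93 FPKM in PBS replicates 1, 2 and 3. It too passed with PBS replicate 3 in the fit (limma adjusted p = 0.0962 without it and 0.0394 with it). Its close paralog Akr1b10, with 85.4% identical coding sequence, averaged 7.45 ± 0.767 FPKM in STZ and 8.52 ± 0.0354 FPKM in PBS. Akr1c14, a hydroxysteroid dehydrogenase, had 1.09, 0.81 and 1.33 FPKM in STZ, against 1.87 and 1.74 FPKM in PBS (limma adjusted p = 0.138), and Akr1e1 averaged 3.71 ± 0.437 FPKM in STZ and 4.07 ± 0.502 FPKM in PBS.

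**Figure D4:**
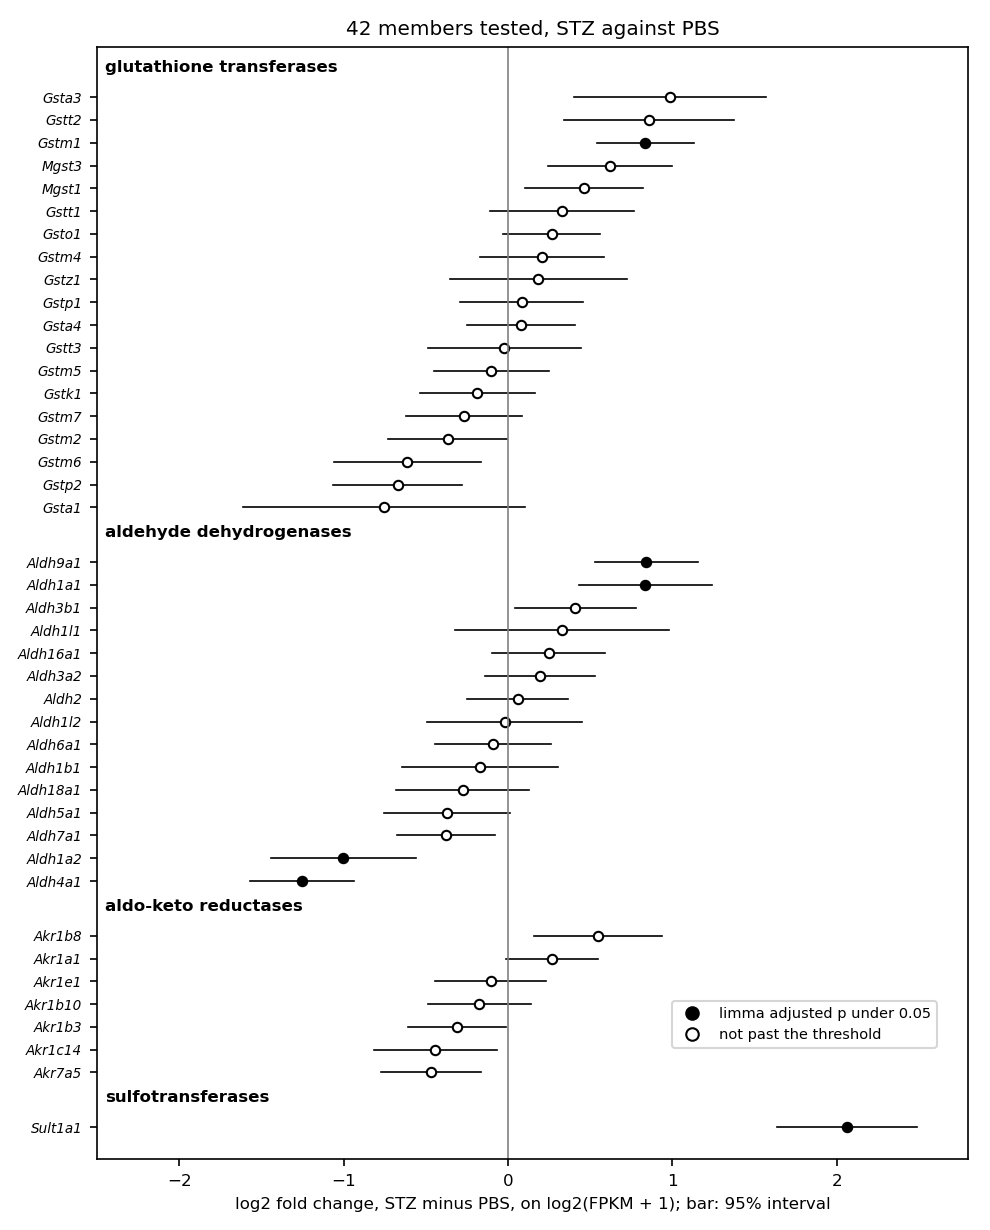
Log2 fold changes (STZ minus PBS, on log2(FPKM + 1), 5 complete libraries) of the 42 tested members by enzyme group, with 95% intervals from limma. Filled points passed an adjusted p of 0.05, namely Sult1a1 (2.06), Aldh9a1 (0.84), Gstm1 (0.84), Aldh1a1 (0.84), Aldh1a2 (-1) and Aldh4a1 (-1.25), and open points did not.

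PBS replicate 3 listed 26 of the tested members. Over all 6 libraries 14 of these had groups that did not overlap, where 41.9% of the 4811 tested genes listed there did. With that library in the fit 8 of the 26 passed, which is 30.8%, against 12.4% of the 4811 genes. They were Aldh9a1, Gsta3, Mgst3, Akr1b8 and Mgst1 in the upward direction and Aldh4a1, Aldh1a2 and Akr7a5 in the downward one. Over all 42 tested members 11 passed in that fit, beside 10.1% of all genes tested. The file did not list Sult1a1, Gstm1 or Aldh1a1, so their values rest on PBS replicates 1 and 2.

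Among related enzymes outside these families, a list of oxidoreductases of alcohols, carbonyls and retinoids also held the epoxide hydrolases Ephx1 and Ephx2. Of its 31 tested genes 7 rose and 0 fell (median 0.18 on the log2 scale). Over all genes tested 3.64% rose and 2.17% fell. The epoxide hydrolase Ephx1 had 29.9, 28.6 and 32.8 FPKM in STZ, against 13.1 and 11.4 FPKM in PBS (limma adjusted p = 0.00986), and Adh1, an alcohol dehydrogenase that also acts on retinol, had 11.3, 7.04 and 10.3 FPKM in STZ, against 2.63 and 3.62 FPKM in PBS (limma adjusted p = 0.0276). The others were Ephx2, Hsd11b1, Nqo1, Aox1 and Xdh. Of 19 tested genes of glutathione synthesis and turnover 1 rose (5.26%, beside 3.64% of all genes tested), the amino acid transporter subunit Slc3a2 (16.7, 17.2 and 16.6 FPKM in STZ, against 8.12, 8.45 and 8.86 FPKM in PBS replicates 1, 2 and 3, limma adjusted p = 0.0139), and 0 fell. Gclc, which catalyses the limiting step of glutathione synthesis, averaged 4.43 ± 0.829 FPKM in STZ and 2.57 ± 0.24 FPKM in PBS (limma adjusted p = 0.0852), and glutathione reductase, Gsr, 6.27 ± 0.928 FPKM in STZ and 6.36 ± 0.325 FPKM in PBS (limma adjusted p = 0.929).

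Markers of other cells differed between the groups or between libraries in several lists. The 4 atrial markers summed to 3304, 961.1 and 1591 FPKM in STZ replicates 1, 2 and 3 and to 1328 and 301.6 FPKM in PBS replicates 1 and 2, with 0 of 4 past the threshold in limma. Of these, Myl7 had 357, 73.7 and 0.28 FPKM in STZ replicates 1, 2 and 3, against 262, 37.9 and 0.21 FPKM in PBS replicates 1, 2 and 3, so libraries with the same number were alike in it. Myl4 and Sln showed the same pattern over the libraries that list them. Nppa did not, with 2864, 876 and 1591 FPKM in STZ replicates 1, 2 and 3, against 996 and 251 FPKM in PBS (limma adjusted p = 0.184). It made up nearly all of the atrial sum in STZ replicate 3, where Myl4 was at 0.21 FPKM and Sln at 0.

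The 6 fibroblast markers summed to 94.5 to 98.2 FPKM in STZ and 99.3 to 112.3 FPKM in PBS. Col1a1 and Col3a1 fell. Pdgfra (3.97 FPKM in STZ, 2.83 FPKM in PBS), Tcf21 (3.003 FPKM in STZ, 2.35 FPKM in PBS) and Dcn (71.7 FPKM in STZ, 54.95 FPKM in PBS) did not pass. Their values were higher in all STZ than in both complete PBS libraries, as were those of 28.7% of all genes tested. PBS replicate 3 had 3.64 FPKM of Pdgfra, above STZ replicate 3 (3.41 FPKM), and 50.1 FPKM of Dcn, below all STZ libraries. The 5 endothelial markers summed to 265.5 to 374.7 FPKM in STZ and 168.6 to 174.1 FPKM in PBS, and Fabp4, which also marks fat cells, was the 1 that passed, upward. Without Fabp4 the other 4 summed to 92.3 to 110 FPKM in STZ and 94.1 to 95.5 FPKM in PBS, with overlap. Of these, Pecam1 was higher and Kdr lower in all STZ than in both complete PBS libraries, while Cdh5 and Tie1 overlapped. Over all genes tested 28.7% were higher and 18.8% lower in that way. In the smooth muscle and pericyte list Acta2 fell (22.1 FPKM in STZ, 51.25 FPKM in PBS, limma adjusted p = 0.0221), and the 5 markers summed to 125.9 to 171 FPKM in STZ and 163 to 178.2 FPKM in PBS.

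The 5 macrophage markers summed to 46.8 to 63.0 FPKM in STZ and 60.5 to 66.7 FPKM in PBS with 0 of 5 past the threshold in limma. Adgre1, Csf1r and Mrc1 were lower in all STZ than in both complete PBS libraries, as were 18.8% of all genes tested. PBS replicate 3 lay within the STZ range for Csf1r (6.04 FPKM, against 6.31 FPKM in STZ replicate 2). It did so too for Mrc1 (3.19 FPKM, against 3.68 FPKM in STZ replicate 2), but was above that range for Adgre1 (3.10 FPKM). The 5 neutrophil markers summed to 41.2 to 57.2 FPKM in STZ and 3.61 to 8.06 FPKM in PBS. S100a8 and S100a9 rose, and so did Retnlg, which met the filter only through the STZ libraries, while Csf3r and Ly6g were not tested and stayed at or below 0.81 FPKM. The 5 erythroid markers summed to 329, 959.1 and 360.8 FPKM in STZ replicates 1, 2 and 3 and to 310.2 and 282.9 FPKM in PBS replicates 1 and 2, and 0 of 5 passed in limma. The 6 hepatocyte markers, set beside the liver-type members Gsta1 and Gsta2, summed to 0.90 to 7.73 FPKM in STZ and 5.81 to 17.3 FPKM in PBS, with 0 of 3 tested past the threshold in limma. The 6 adipocyte markers summed to 0.20 to 1.59 FPKM in STZ and 2.15 to 4.16 FPKM in PBS, with Lep and Ucp1 at 0, and the 4 Schwann cell markers to 2.08 to 3.09 FPKM in STZ and 1.83 to 2.29 FPKM in PBS. The part of these cells in the members' values was not tested.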

How the data were processed

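RNA sequencing of myocardium was analysed in 3 STZ and 3 PBS libraries. Per the labels' protocols, TRIzol extracts were selected for poly(A) RNA, with dUTP in the second strand. Per the file headers, the authors deposited FPKM for each gene. The submitters' processing notes name GRCm38, StringTie 1.3.4d, HISAT2 2.0.4 and cutadapt 1.9. The sources used here do not give the strand setting or annotation release, so reads of overlapping or near-identical genes may be shared.

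Of 55401 identifiers 55141 matched a symbol in GENCODE M21 of the same build. A gene was tested if 2 or more of the 5 complete libraries held 1 FPKM or more. The scale was log2(FPKM + 1), whose pseudocount understates the change of low genes. The test was limma 3.58.1 in R 4.3.3 (lmFit, eBayes with trend), two-sided, without covariates, and p-values were adjusted over every tested gene by Benjamini-Hochberg. A file listing fewer than 50% of the genes was left out of that fit. Members were named by adjusted p under 0.05, by the 5 highest means and 3 largest changes per enzyme group, by listing in PBS replicate 3, or as close paralogs. Other tested members, and genes of the related lists and neighbours, were named after their values were seen. The members and lists were chosen with earlier results of these data known. Shared stretches are runs of 75 bases of the transcript with the longest coding sequence found in transcripts of other genes. Coding sequences were aligned with Biopython 1.88. Alternatives changed the pseudocount, filter, scaling, variance model, replicate block, libraries and threshold.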

Additional observations from a re-analysis of the deposited data

How the results depend on the processing

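Of the 6 calls, the direction was the same under every alternative run for them. Pseudocounts of 0.1 and 0.5, TPM, eBayes without trend and robust eBayes gave 4 members higher and 2 lower, and so did a filter at 5 FPKM, where Aldh1a2 was not tested and Gstp2 passed instead (log2 fold change -0.67, limma adjusted p = 0.0478). Median centring, quantile normalization and rescaling without mitochondrial and haemoglobin genes gave 3 higher and 2 lower. With no filter 1 member was higher (Sult1a1) and 1 lower (Aldh4a1), and 81 of all genes passed. With a threshold of 0.1, 8 members were higher and 4 lower, and 1642 of all genes passed (14.2% of those tested). With PBS replicate 3 added 8 were higher and 3 lower, and 1169 of all genes passed (10.1% of those tested). Leaving out 1 library gave 0 to 3 members higher, 0 to 2 lower, and 24 to 398 of all genes, with the lowest counts where 1 PBS library was left, whose spread is assumed to equal that of the STZ group.

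The labels do not say that a shared replicate number marks a shared source. Deviations of libraries from their group means were correlated between the groups over 4811 genes. Libraries of the same number gave 0.176, -0.05 and 0.15 (replicates 1, 2 and 3), and libraries of different numbers gave -0.233 to 0.093. No cut-off was set for these values, so they cannot decide whether the libraries are pairs, and the main fit did not pair them. The atrial genes Myl7, Myl4 and Sln followed the number in both groups. With the replicate number as a block 1 member was higher (Sult1a1), 0 were lower and 64 of all genes passed in limma, where 2675 had an unadjusted p under 0.05. The other calls then had adjusted p-values of 0.0537 (Aldh4a1), 0.0688 (Gstm1), 0.0743 (Aldh9a1), 0.0891 (Aldh1a2) and 0.0998 (Aldh1a1). STZ replicate 3 has no partner in this block, so the estimates equal those without that library (-1.19 for Aldh4a1 in both). This fit therefore cannot show whether pairing alone changes a call. The same holds, with PBS replicate 3 added, for genes its file does not list, such as Aldh1a1 (0.88 with the block either way). With the block and PBS replicate 3, an alternative chosen after seeing the data, 5 were higher and 2 lower, and Aldh1a1 (adjusted p = 0.072 in limma), Akr7a5 (0.0705), Akr1b8 (0.0564) and Mgst1 (0.0788) did not pass.

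Signs turned only in members that did not pass. Aldh1l2 had 0.0148 with TPM, 0.14 with the replicate block, and 0.0612 with PBS replicate 3 with or without the block. Aldh2 had -0.01 after median centring and -0.0486 after quantile normalization, and Aldh6a1 0.0154 with the block. Gsta4 had -0.03 after quantile normalization and -0.0013 with the block, with or without PBS replicate 3. Gstp1 had -0.0514 after quantile normalization, and Gstt3 0.005 with TPM and 0.12 with PBS replicate 3, with or without the block. With 1 library left out the ranges were -0.0021 to 0.66 for Aldh1l1, -0.0518 to 0.14 for Aldh1l2, -0.15 to 0.0154 for Aldh6a1, -0.0013 to 0.15 for Gsta4, -0.048 to 0.21 for Gstp1, -0.11 to 0.10 for Gstt3 and -0.17 to 0.54 for Gstz1. The cause was not tested. The depth is unknown, so values near 1 FPKM carry no counting interval.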

Other observations

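On chromosome 9, Polr2m beside Aldh1a2 averaged 64.8 FPKM in STZ and 85.7 FPKM in PBS (log2 fold change -0.41, limma adjusted p = 0.15). Myzap, the next tested protein-coding gene, rose, with 109 FPKM in STZ and 69.25 FPKM in PBS (log2 fold change 0.65, limma adjusted p = 0.0489). Iffo2, 2483 bases from Aldh4a1, averaged 1.497 FPKM in STZ and 1.395 FPKM in PBS (limma adjusted p = 0.802). Sgf29 and Bola2, on either side of Sult1a1, had log2 fold changes of 0.15 and 0.22 (limma adjusted p = 0.52 and 0.374), against 2.06 for Sult1a1.

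Gm3776, a protein-coding gene left out by its name, shares 86.3% of the 75-base stretches of Gsta1. It had 0.46, 0.25 and 0.76 FPKM in STZ, against 1.69 and 1.65 FPKM in PBS, and met the filter only through the PBS libraries, where it is high. The groups did not overlap, as for 18.8% of all genes tested in this direction, and the log2 fold change was -0.86 (limma adjusted p = 0.0503). The processed pseudogene Gstm2-ps1 had 6.76, 10.7 and 9.60 FPKM in STZ, against 5.75 and 4.92 FPKM in PBS (limma adjusted p = 0.108), and reads of either could be shared with their parent genes.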
